A study of Mus musculus with 10 samples.

Results

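The 5 control livers of a mouse series on whole liver were described here by themselves, as a baseline of what liver RNA holds and how far it differs from liver to liver. They are the 5 libraries labelled Control No1 to No5, out of 10 libraries in the series; the other 5 come from livers labelled as Alk1 knockout and were not used. Each library was made from frozen, homogenised whole liver. The genotype label of all 5 is Ctrl, and the labels give no age, sex, strain, diet or treatment, nor which alleles the controls carry. Nothing in the labels says that each library came from a different animal, so the spread given below is the spread between these libraries. All values describe 1 group, and no test was made.

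Most cells by mass in a liver are hepatocytes, which make the bulk of the plasma proteins, store and release fuel, and break down drugs and bile acid precursors. Between the plates of hepatocytes run sinusoids lined by fenestrated endothelium, with Kupffer cells, the resident macrophages, inside them and hepatic stellate cells, which store vitamin A, around them. Bile ducts are lined by cholangiocytes. In a bulk sample fewer cells of a type and less RNA per cell cannot be told apart, so every level below is a level in the tissue's RNA.

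The libraries were of nearly equal depth, 21050459 to 21556461 estimated counts. Levels are in TPM, a transcript abundance corrected for transcript length, which sums to the same total in every library and allows levels to be compared between genes. Genes at 1 TPM or more numbered 10108 to 10700 per library, and 9335 reached it in all 5. Of 55385 genes listed, 30571 had no count in any of the 5, which allows up to 3 counts, or 0.139 to 0.143 CPM, counts scaled to a common library total, in each library. Such limits cover counting error only. Alb, the serum albumin gene that marks hepatocytes, stood at 35722, 45351, 21119, 41534 and 36511 TPM in controls 1 to 5 and had the highest mean of all genes. Its lowest value was in control 3, where mitochondrial RNA took the largest part of the pool. Alb was also lowest there in log2 CPM, the scale used below between libraries, at 15.46 against 15.92 to 16.04. The part of mitochondrial RNA in that low value was not tested. The knockout target of the series, Acvrl1, which encodes the receptor ALK1, was at 1.05, 0.296, 0.391, 0.661 and 0.951 TPM in these controls, on a mean of 34.6 estimated counts.

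The pool was top-heavy. The 11 genes with the highest means held 25 percent of all TPM, 38 genes held 50 percent, and 1296 genes held 90 percent. The 100 most abundant genes took 65.2% ± 4.24 (SD, n = 5) of the TPM. Genes at a mean of 10000 TPM or more numbered 23. At the other end, 3625 genes were at 10 TPM or more in all 5 livers and 682 at 100 TPM or more.

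**Figure D1:**
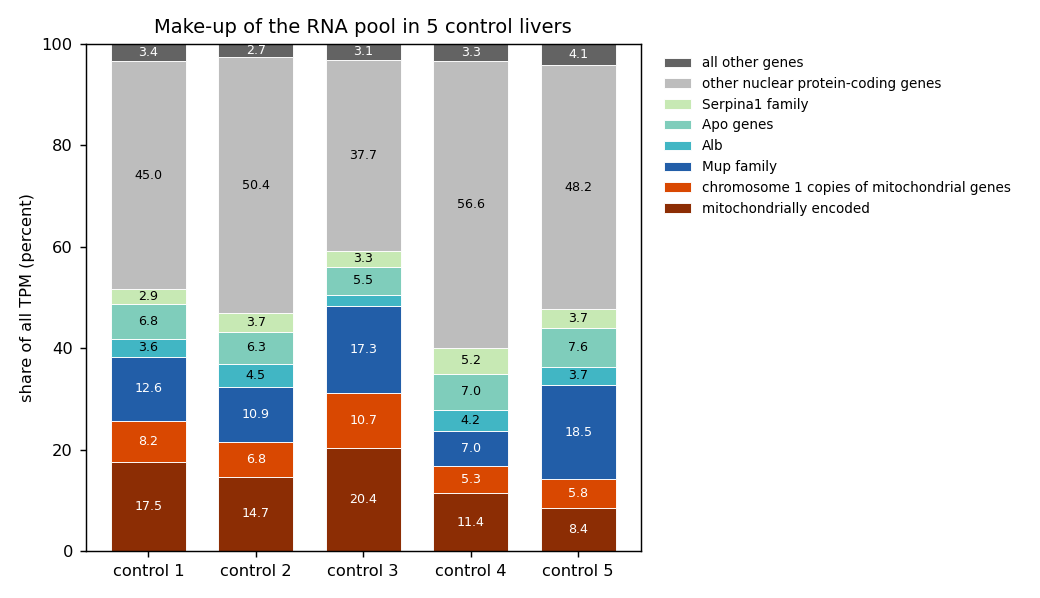
Share of all TPM, in percent, held by 8 classes of genes that do not overlap, as stacked bars for each of the 5 control livers. Mitochondrially encoded RNA ranged from 8.37% in control 5 to 20.4% in control 3, and the Mup family from 7.05% in control 4 to 18.5% in control 5.

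Mitochondrially encoded genes formed a large and variable part of the pool. They encode subunits of the respiratory chain, the ribosomal RNAs and the tRNAs of the organelle. They held 17.5, 14.7, 20.4, 11.4 and 8.37% of the TPM in controls 1 to 5. The highest share, in control 3, was more than that of controls 4 and 5 added together. A set of 5 genes annotated as pseudogenes on chromosome 1 held 8.21, 6.83, 10.7, 5.30 and 5.80%. These are copies of mitochondrial genes that lie in the nuclear genome: Gm29216 resembles mt-Co1, Gm28661 mt-Co2, Gm28437 mt-Co3, Gm10925 mt-Atp6 and Gm28438 mt-Nd3. Gm28661, Gm28437 and Gm10925 matched their counterparts at 100% of 681, 783 and 678 bases. Gm28438 matched mt-Nd3 at 99.7% of 345 bases and Gm29216 the end of mt-Co1 at 99.8% of 483 bases, with 1 mismatch.

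The start of the matching stretch shows how little parts a mitochondrial transcript from its nuclear copy. The 60 bases below are bases 1063 to 1122 of mt-Co1 and bases 10 to 69 of Gm29216, from the GENCODE vM21 transcripts on build GRCm38, with the only base that differs in capitals.
mt-Co1: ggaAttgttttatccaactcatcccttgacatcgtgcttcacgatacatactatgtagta
Gm29216: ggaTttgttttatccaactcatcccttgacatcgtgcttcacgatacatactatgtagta

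A short read from the rest of that stretch fits both genes, and the split of reads between them is an estimate. The copy's share of the TPM of the pair mt-Co1 and Gm29216 was 55.2, 54.4, 57.7, 57.5 and 71.8% in controls 1 to 5. In estimated counts the copy was the lower of the pair, with a mean of 222721 against 676887 for mt-Co1. The transcript of the copy has 492 bases and that of mt-Co1 1545, and TPM corrects for length. Added together, the pair stood at 72031, 56245, 87998, 41332 and 41446 TPM. The sum thus kept the order of the mitochondrial share as a whole for the 3 highest libraries, with controls 4 and 5 nearly level. How much of the RNA came from chromosome 1 cannot be read from these values. All 23 mitochondrial genes and copies with a mean count of 100 or more were highest in control 3, and 15 of the 23 were lowest in control 5. Over all 8521 genes with that mean count, 16.8% were highest in control 3 and 15.2% lowest in control 5.

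Because TPM sums to a fixed total, a large mitochondrial share lowers every other gene's TPM. With the mitochondrial genes and the 5 copies left out and the rest rescaled, the summed level of 17 hepatocyte transcription factors differed by a coefficient of variation of 4.47%, against 10.1% in the full pool. Not every list became more even: that of sinusoidal endothelium went from 30.5 to 32.3% and that of immediate early genes from 50.2 to 52.2%. The hepatocyte factors, among them Cebpa, Hnf4a and Creb3l3, set hepatocyte identity. For comparisons between libraries the text therefore uses log2 CPM on a scale set by TMM, a method that fits the scale on the body of genes. The SD of log2 CPM over the 5 libraries is the measure of spread, given for genes with a mean count of 100 or more. An SD of 1 means that libraries lay typically about 2-fold from their mean. Gene by gene the 17 hepatocyte factors were less even than their sum. Their median SD was 0.35, above the 0.21 of all genes with that count. Of the 17, 5 had an SD above 0.5, against 7.05% of all genes.

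The major urinary proteins, small lipocalins that carry pheromones into mouse urine, were the largest nuclear family. The 49 Mup genes and pseudogenes held 12.6, 10.9, 17.3, 7.05 and 18.5% of the TPM in controls 1 to 5, with control 4 lowest. Mup22 stood at 35736, 30884, 39584, 25812 and 42936 TPM. Mup7 stood at 26949, 23745, 36722, 14662 and 42283 TPM. Control 4 was lowest in log2 CPM for all 19 Mup genes with a mean count of 100 or more, and control 3 was highest for 16 of them. Over all genes control 4 was lowest for 19.8% and control 3 highest for 16.8%. The family also spread widely: its median SD was 0.98 against 0.21 over all 8521 genes with that count, and 9 of the 19 had an SD above 1, or 47.4% against 1.08% of all genes. Without control 4 the number was 4 of 19. Mup17 at 2558, 1239, 5289, 249 and 4801 TPM had the largest SD of the family, 1.96, and Mup3 at 13416, 14446, 11678, 8105 and 13725 TPM the smallest, 0.41.

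Most Mup transcripts match another member at 98.7 to 99.6%, so values of single members are uncertain and the family total is the safer figure. Mup22, the most abundant member, matched Mup18 over 861 bases with 5 mismatches. The stretch below, bases 288 to 347 of Mup18 and 222 to 281 of Mup22, holds 1 of them, in capitals.
Mup18: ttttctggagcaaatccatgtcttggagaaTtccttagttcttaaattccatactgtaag
Mup22: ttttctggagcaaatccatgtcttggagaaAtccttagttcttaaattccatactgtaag

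Mup18 was listed at 88.4, 59.4, 155, 28.1 and 135 TPM, far under Mup22 in every library. Mup20, which encodes the pheromone darcin, has the lowest identity to its best match among the abundant members, 90.6%. The best match of Mup3 was at 94.7% but covered only 61.5% of its transcript. Mup20 stood at 9651, 10131, 13722, 7116 and 12687 TPM. Control 4 was lowest for Mup20 too. The part of shared reads in the values of single members was not tested.

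Secreted plasma proteins made up most of the rest of the top ranks. The 30 hepatocyte secretory genes summed to 181615 TPM ± 31869 (SD, n = 5), 18.2% of all TPM, with Alb alone at 19.8% of that sum. Apolipoproteins, the proteins of plasma lipid particles, held 6.66% ± 0.807 (SD, n = 5). Apoe stood at 18088, 16674, 12972, 18037 and 20884 TPM, and Apoa2 at 17374, 15220, 12873, 13292 and 18363 TPM. Their SDs of log2 CPM were 0.21 and 0.28, beside a median of 0.21 over all genes. Trf, the plasma iron carrier transferrin, was at 9897, 11207, 9233, 18218 and 12886 TPM.

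The alpha-1-antitrypsin family, protease inhibitors of plasma, showed how unevenly close relatives can vary. Serpina1e stood at 5643, 11975, 12886, 25680 and 13840 TPM, an SD of 0.76. Serpina1d stood at 3708, 4343, 2876, 4258 and 3386 TPM, an SD of 0.07, under the 5th percentile of all genes, 0.088. The best match of each of the 5 members to another was at 96.0 to 98.5%, so their split is an estimate too. Their total, 2.94, 3.71, 3.27, 5.21 and 3.74% of the TPM, was highest in control 4.

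The Alb promoter is shown as the control region of the most abundant gene. It is the RefSeq window of 250 bases before to 50 after the start, chr5:90460620-90460919 on the plus strand of GRCm38.p6, with the letters GTTAAT, one arm of the palindrome that the hepatocyte factor HNF1 binds, in capitals.
Alb: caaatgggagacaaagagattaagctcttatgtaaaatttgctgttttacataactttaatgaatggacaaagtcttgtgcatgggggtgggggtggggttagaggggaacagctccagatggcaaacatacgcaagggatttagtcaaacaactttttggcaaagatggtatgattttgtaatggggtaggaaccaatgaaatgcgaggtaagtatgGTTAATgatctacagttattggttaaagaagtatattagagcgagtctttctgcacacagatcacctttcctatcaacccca

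GTTAAT was searched on both strands, and 7.1% of the 32544 different promoter windows of the table hold it. Only 69 of the 100 most abundant nuclear genes and 56 of the 100 most variable genes had a window there, so a comparison of motifs between such sets is void.

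The zones of the liver lobule were all represented. Around the central vein hepatocytes express cytochrome P450 genes and glutamine synthetase. Cyp2e1, an ethanol and drug oxidase, stood at 3264, 3436, 2739, 3099 and 3227 TPM, and Glul, the synthetase, at 243, 350, 258, 246 and 320 TPM. Their SDs were 0.12 and 0.25, beside a median of 0.21 over all genes. Cyp7a1, the rate-limiting enzyme of bile acid synthesis, had the largest SD of the pericentral list, 1.01. It stood at 25.9, 44.8, 7.56, 62.1 and 48.3 TPM. Near the portal vein hepatocytes make urea and glucose. Ass1, a urea cycle enzyme, stood at 2693, 2947, 1835, 3838 and 2427 TPM. G6pc, the last enzyme of glucose release, was at 242, 346, 333, 75.7 and 82.9 TPM, lower in controls 4 and 5 than in the others. How many genes divide the libraries that way was not counted. Of the 19 periportal genes G6pc was the only one with an SD above 1, at 1.15, against 1.08% of all genes.

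Drug metabolism genes were abundant. The 37 genes of the list summed to 2.89% of the TPM, 36.5% of it from Gstp1, a glutathione transferase at 9928, 8700, 9362, 10499 and 14324 TPM. None of the 29 with a mean count of 100 or more had an SD above 1. Only 1.08% of all genes had one, so this count does not set the list apart. The median SD, 0.34, was above the 0.21 of all genes. Control 4 was lowest for 15 of the 29, against 19.8% of all genes. Cyp3a11, the main inducible drug oxidase, was at 4118, 3098, 1585, 1875 and 1817 TPM. Cyp2b10, Cyp2b9 and Cyp2b13, inducible or female-biased P450 genes, were at a mean of 0.58, 0.0282 and 0 TPM.

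**Figure D2:**
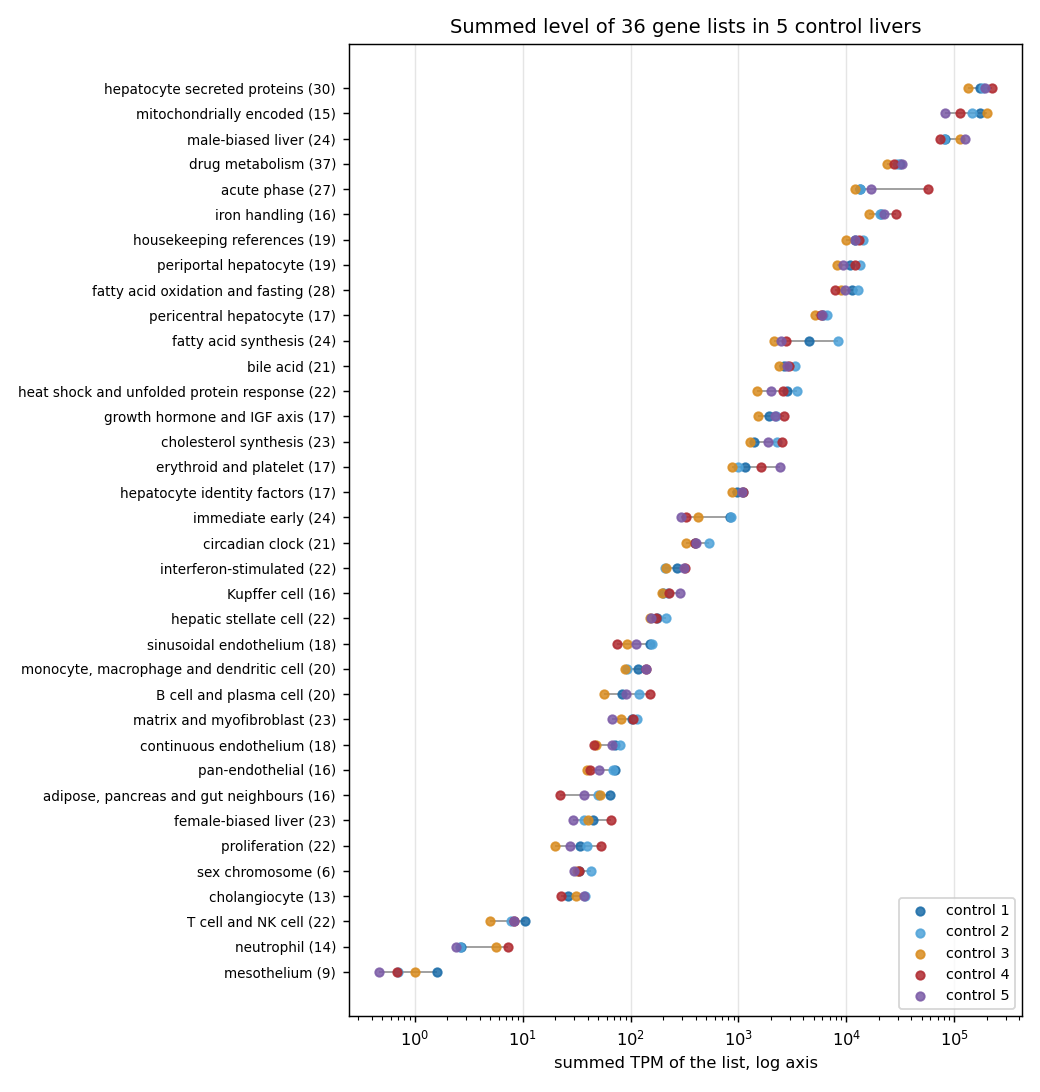
Summed TPM of each of 36 gene lists on a log axis, with the number of genes in brackets, 1 point per control liver and a line from the lowest to the highest. The sums run from 0.892 TPM for mesothelium to 181615 TPM for hepatocyte secreted proteins, and the acute phase list shows control 4 far from the other 4.

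Endothelial genes were measured at low levels. The 18 genes of sinusoidal endothelium summed to 153, 156, 93.6, 74.7 and 113 TPM in controls 1 to 5. Clec4g, a lectin of sinusoidal cells, led them at 34.7, 33.3, 19.7, 14.7 and 22.9 TPM, with control 4 lowest. Stab2, the hyaluronan scavenger receptor, was at 6.55, 6.58, 2.81, 3.10 and 3.44 TPM. Bmp2, a ligand that hepatocytes read to set hepcidin, was at 3.08, 3.95, 2.12, 1.24 and 1.83 TPM. Control 4 was lowest in log2 CPM for 15 of the 16 genes with a mean count of 100 or more, against 19.8% of all genes.

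The same 16 genes split by another line. In the names of the deposited files, controls 1 and 2 carry consecutive numbers and controls 3, 4 and 5 another consecutive run; the labels do not say what the numbers stand for. Controls 1 and 2 lay both above all of controls 3 to 5 for 13 of the 16 sinusoidal genes and for 7 of 8 genes common to all endothelium. Over all 8521 genes, 18.7% were placed that way and 20.1% the opposite way, with controls 1 and 2 below the rest. The part of the file numbering in these differences was not tested. Eng, an endothelial coreceptor for the same ligand family as ALK1, was at 15.3, 15.8, 9.54, 11.1 and 12.7 TPM, and Pecam1, an adhesion molecule of all endothelium, at 3.03, 4.15, 1.74, 1.56 and 2.25 TPM. The 18 genes listed for continuous endothelium, that of larger vessels, summed to 62.8 TPM, close to the 54.8 TPM of the 16 genes common to all endothelium. Plvap, the protein of endothelial diaphragms, led them with a mean of 19.2 TPM, followed by the water channel gene Aqp1 at 16.9 TPM and Gpihbp1, which anchors lipoprotein lipase, at 12.9 TPM. Another 8 of the 18 were under 1 TPM in all 5 livers. Vwf, of the clotting factor von Willebrand factor, had a mean of 1.56 TPM on fewer than 100 counts, too few for a comparison between libraries here.

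Stellate cell and matrix genes were low. Ecm1, a secreted matrix protein, was at 66.7, 84.2, 55.1, 40.6 and 54.0 TPM, and Dcn, a collagen-binding proteoglycan, at 53.6, 63.2, 47.4, 47.2 and 44.2 TPM. Lrat, which esterifies vitamin A and defines quiescent stellate cells, was at 1.18, 1.80, 1.27, 1.07 and 0.955 TPM. The fibrillar collagens Col1a1 and Col3a1 had means of 1.18 and 3.83 TPM. Control 4 was highest for 2 of the 13 stellate genes with a mean count of 100 or more and lowest for 8, against 20.2% and 19.8% of all genes.

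Smooth muscle genes were highest in control 1. Acta2, smooth muscle actin, was at 6.61, 0.620, 0.599, 0.876 and 1.07 TPM. Myh11 and Cnn1, of the contractile apparatus, were at 1.58 and 1.73 TPM in control 1 and at 0.240 and 0.226 TPM or less in the other 4. These genes had mean counts under 100, and they were singled out after their values were seen.

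Cholangiocyte genes were near the floor. Spp1, osteopontin, made up 67.4% of the list's sum, at 18.3, 25.3, 22.04, 13.9 and 25.4 TPM, and it is not specific to bile ducts. The keratin genes Krt19 and Krt7 had means of 0.504 and 0.152 TPM, Sox9 0.722 TPM and Epcam 0.432 TPM. Of the 13 genes, 7 were under 1 TPM in all 5 livers.

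Among immune genes those of Kupffer cells were the clearest. The complement genes C1qa, C1qb and C1qc had means of 40.2, 33.3 and 24.7 TPM, and Clec4f, a lectin restricted to Kupffer cells in the mouse, was at 27.6, 29.1, 22.2, 19.7 and 35.8 TPM. Control 5 was highest in log2 CPM for 9 of the 10 Kupffer genes with a mean count of 100 or more, against 20.2% of all genes. Class II antigen presentation genes stood beside them, with Cd74 at 51.1, 42.6, 35.1, 57.8 and 63.0 TPM. Neutrophil genes summed to 2.65, 2.65, 5.64, 7.37 and 2.39 TPM, and Ly6g and Ngp, granule and surface genes of neutrophils, were listed above 0 in control 4 only. The 22 T and NK cell genes summed to 7.99 TPM ± 2.01 (SD, n = 5), 28.9% of it Ccl5. The sum of the B and plasma cell list, 100 TPM, was 72.5% Sdc1, which hepatocytes also express, while Cd79a, of the B cell receptor, had a mean of 0.774 TPM.

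Genes of red blood cells were measured as well, the globins among them. Hba-a1 stood at 332, 288, 221, 460 and 720 TPM and Hbb-bs at 298, 246, 248, 474 and 641 TPM, both highest in control 5 and lowest in control 2 or 3. Alas2, the heme synthesis enzyme of erythroid cells, was also highest in control 5 in TPM but differed far less. It stood at 117, 111, 119, 119 and 131 TPM, an SD of 0.11. Hba-a1 and Hba-a2 match at 99.8%, so the pair cannot be split safely. Of neighbouring organs, Adipoq, Lep, Ins2, Pnlip, Prss1, Reg3b and Muc2 had no count in any library. Fabp2 made up 87.4% of that list, at 55.1, 46.9, 46.2, 17.2 and 32.4 TPM, and it is also expressed by liver. The 9 mesothelial genes were all under 1 TPM.

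All 5 livers carried Y-linked transcripts. Eif2s3y was at 18.9, 25.8, 19.2, 19.96 and 17.6 TPM, Ddx3y at 11.3, 12.2, 9.35, 9.20 and 9.14 TPM, and Xist, the RNA that coats the inactive X chromosome, had a mean of 0.00123 TPM. The male-biased list, whose Mup members were given above, summed to 94893 TPM and the female-biased list to 43.3 TPM. Hsd3b5, a steroid enzyme of male liver, was at 104, 144, 135, 157 and 167 TPM. Selenbp2, a selenium-binding protein of the same list, parted the livers at 119, 177, 992, 672 and 910 TPM, an SD of 1.54, with controls 1 and 2 under the rest. Hao2 and Cyp3a41b, female-biased genes, had means of 0.00532 and 0.00405 TPM. Of the 23 female-biased genes 14 were under 1 TPM in all 5 livers, and 4 were at 1 TPM or more in all 5.

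The spread between livers was small for most genes. The median SD of log2 CPM over the 8521 genes was 0.21, and the range from the 5th to the 95th percentile was 0.088 to 0.56. The median coefficient of variation was 14.9%, while counting error at these depths would give 4.82%, and 6705 genes, 78.7%, had more than 2 times their counting error. Only 92 genes, 1.08%, had an SD above 1. The share was not largest among the least counted genes: it was 0.981% for mean counts of 100 to 300 and 4.68% for mean counts of 10000 or more, the latter being 11 of 235 genes.

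**Figure D3:**
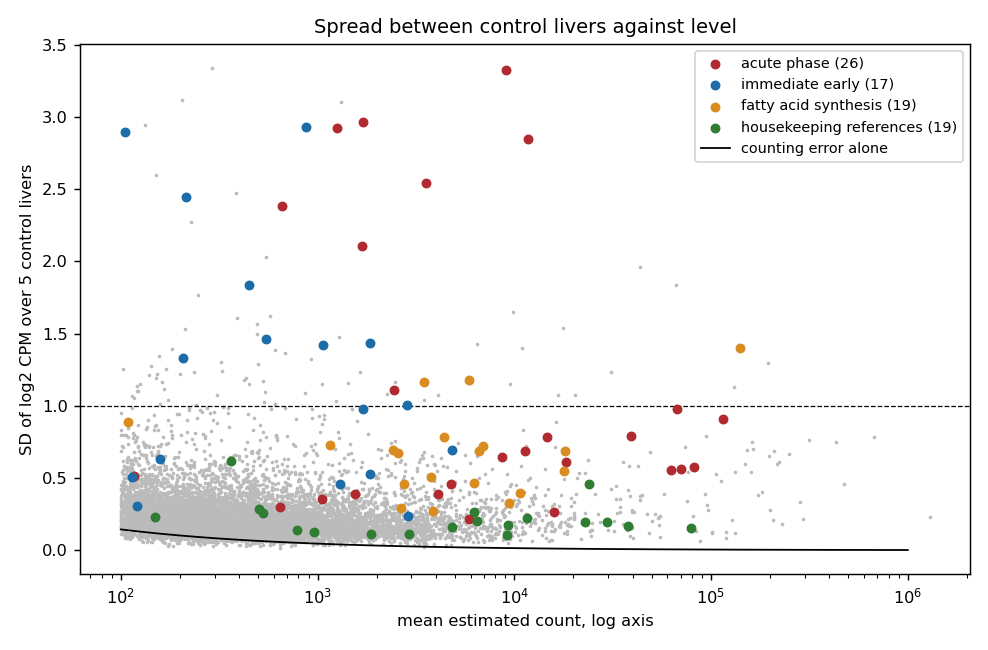
SD of log2 CPM over the 5 control livers against the mean estimated count on a log axis, 1 point per gene with a mean count of 100 or more; the black curve is counting error alone and the dashed line an SD of 1. Acute phase and immediate early genes reach SDs of 3.33 and 2.93, while the 19 housekeeping references have a median of 0.192.

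Of the 92 genes, 37 belonged to one of the lists, 9 to the Mup family, and 80 were annotated as protein-coding. Control 4 held the extreme value most often, as the highest library for 28 and the lowest for 32 of them. Over all 8521 genes the extremes lay most often in control 2, highest for 32.4% and lowest for 23.8%, while control 4 was highest for 20.2% and lowest for 19.8%. In addition 56 genes in control 4 lay more than 1 log2 unit above every other library and 47 lay that far below, against at most 8 above and 17 below in any other library. Without control 4, 65 genes had an SD above 1, of which 54 were among the 92.

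**Figure D4:**
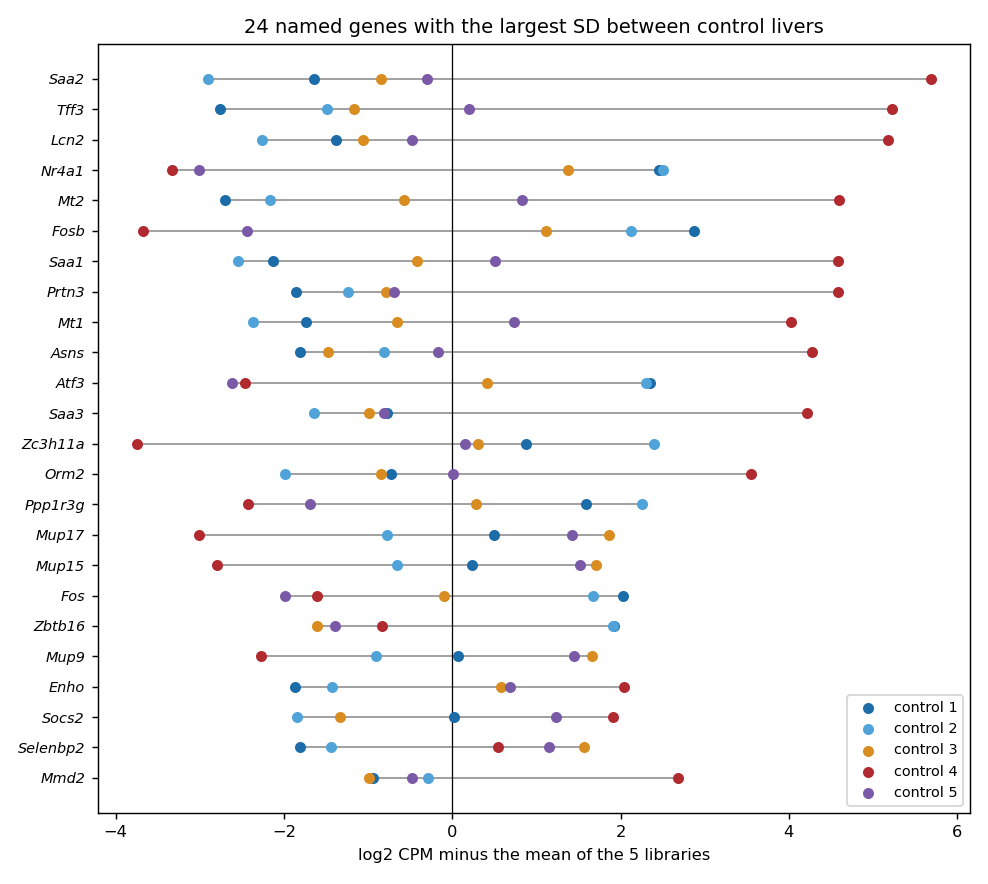
Log2 CPM of 24 named genes with the largest SD, as the difference from each gene's mean over the 5 control livers, 1 coloured point per liver and a line over the range. Control 4 lies at the far right for Saa2, Tff3, Lcn2, Mt2 and Saa1 and at the far left for Nr4a1, Fosb, Zc3h11a and the 3 Mup genes.

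The acute phase list held the named gene with the largest SD, although its median SD was below that of the immediate early list. Acute phase genes encode plasma proteins that hepatocytes release in inflammation, under interleukin-6 and interleukin-1. Their summed level was 13252, 13487, 11947, 57464 and 17003 TPM, so control 4 alone stood apart. Saa2, a serum amyloid A, was at 29.0, 14.6, 41.5, 5332 and 75.6 TPM, the largest SD of any named gene, 3.33. Saa1, its neighbour, was at 55.5, 49.7, 146, 6586 and 351 TPM. Control 5 was second and control 2 lowest for both.

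Saa1 and Saa2 lie next to each other on chromosome 7, transcribed away from each other, and their transcripts match at 96.7%. Their promoters are shown because the pair had the same highest and lowest livers. The windows are chr7:46742931-46743230 on the minus strand for Saa1 and chr7:46751583-46751882 on the plus strand for Saa2, in RefSeq on GRCm38.p6. The 13 bases of each that the other lacks are in capitals, and the other 95.7% are shared.
Saa1: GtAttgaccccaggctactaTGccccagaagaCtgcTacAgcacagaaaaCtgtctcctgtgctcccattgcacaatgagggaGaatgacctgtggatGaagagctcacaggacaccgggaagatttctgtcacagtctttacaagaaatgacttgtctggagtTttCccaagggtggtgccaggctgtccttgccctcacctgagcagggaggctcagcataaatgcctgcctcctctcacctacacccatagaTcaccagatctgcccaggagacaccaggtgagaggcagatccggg
Saa2: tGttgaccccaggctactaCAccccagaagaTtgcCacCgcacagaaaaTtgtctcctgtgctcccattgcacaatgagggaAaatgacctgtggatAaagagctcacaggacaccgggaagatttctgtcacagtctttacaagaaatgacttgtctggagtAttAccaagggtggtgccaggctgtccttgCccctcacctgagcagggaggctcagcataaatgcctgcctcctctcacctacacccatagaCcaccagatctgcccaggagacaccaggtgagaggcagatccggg

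Other acute phase genes also had control 4 far above the rest. Lcn2, which binds bacterial siderophores, was at 5.58, 3.44, 5.60, 592 and 10.4 TPM. Orm2, an acid glycoprotein, was at 29.5, 14.4, 21.6, 635 and 48.5 TPM, and Saa3 at 11.4, 7.51, 7.82, 421 and 11.1 TPM. Control 4 was highest for 23 of the 26 acute phase genes with a mean count of 100 or more, where it was highest for 1725 of all 8521. The metallothioneins Mt1 and Mt2, which bind zinc and belong to the list, were at 2176 and 904 TPM in control 4 and at 200 and 59.1 TPM in control 5. In controls 1 to 3 they were between 27.2 and 55.8 TPM and between 4.93 and 17.9 TPM.

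Some members of the list differed far less. Crp, which responds weakly in mice, was at 201, 237, 152, 254 and 151 TPM, an SD of 0.22. Hamp, the iron hormone hepcidin, was at 2733, 1134, 1152, 2844 and 1463 TPM, with control 1 beside control 4. The receptor genes Il6ra and Il1r1 were at 9.26, 14.6, 4.55, 9.64 and 7.17 TPM and at 8.96, 8.97, 6.10, 6.73 and 5.52 TPM. Fga, Fgb and Fgg, the fibrinogen chains, had SDs of 0.56 to 0.57 and were all highest in control 4. The median SD of the list was 0.67, and 0.35 without control 4. Genes with an SD above 1 numbered 8 of 26, or 30.8% against 1.08% of all genes. Without control 4 they numbered 4 of 23, and over all genes 65.

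Control 4 was also at an extreme for genes outside that list. Tff3, a mucosal trefoil peptide, was at 3.47, 10.6, 8.82, 1046 and 28.7 TPM. Asns, asparagine synthetase, was at 0.734, 1.53, 0.661, 52.3 and 2.07 TPM, and Prtn3, a serine protease of granulocytes, at 0.483, 0.998, 0.977, 63.6 and 1.30 TPM. The neutrophil genes Elane and Mpo, whose products are stored beside that of Prtn3, were at only 0.334 and 0.114 TPM in control 4, a pair looked up after the value of Prtn3 was seen. Ccnd1, a cyclin of cell cycle entry, was at 5.48, 5.55, 3.08, 16.9 and 6.33 TPM, while Mki67, a marker of dividing cells, had a mean of 0.0817 TPM. Fabp1, the liver fatty acid carrier, was lowest there, at 4142 TPM against 5395 to 6851 TPM in the others.

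**Figure D5:**
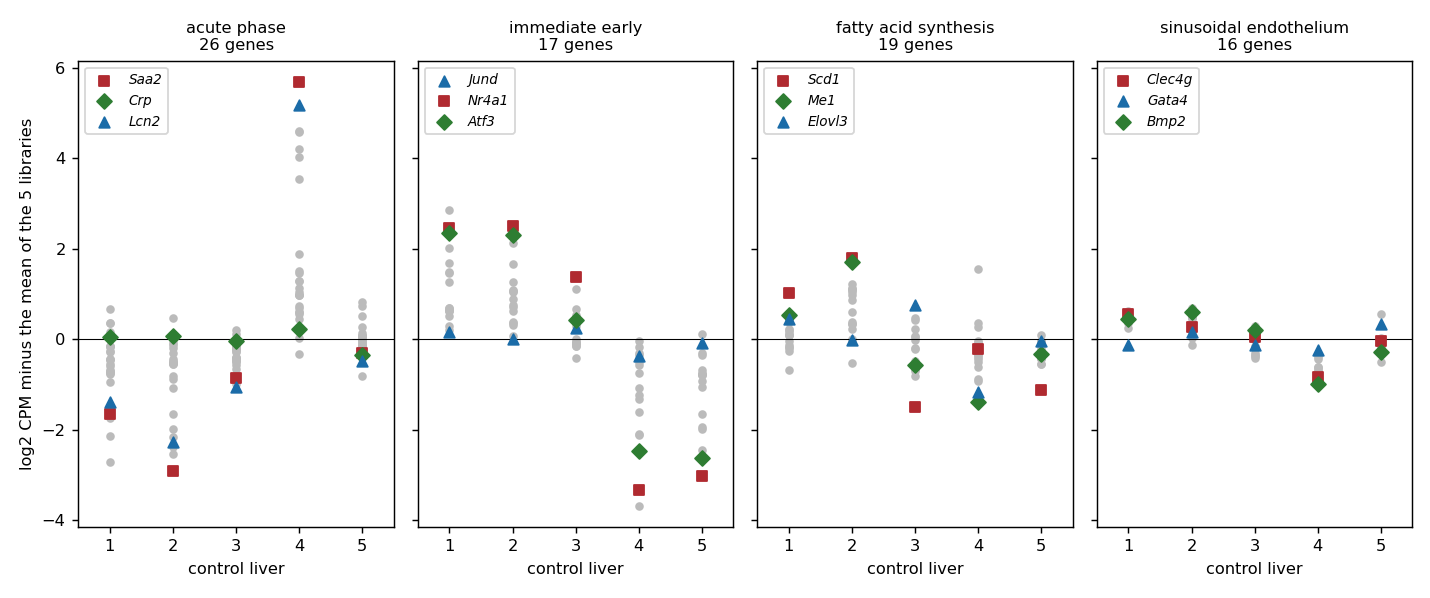
Log2 CPM as the difference from each gene's mean over the 5 control livers for the genes of 4 lists with a mean count of 100 or more, 1 point per gene and liver, with 3 genes of each list in colour. Acute phase genes lie high in control 4, immediate early genes high in controls 1 and 2, fatty acid synthesis genes high in control 2, and sinusoidal genes low in control 4.

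Immediate early genes split the livers another way. They encode transcription factors and phosphatases that cells transcribe within minutes of a stimulus. The summed level was 831, 853, 426, 327 and 295 TPM. Of 17 genes with a mean count of 100 or more, 15 had controls 1 and 2 both above all of controls 3 to 5, and none had control 4 highest. Over all genes that order was found for 18.7%.

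Nr4a1, an orphan nuclear receptor, was at 45.9, 45.1, 14.8, 0.812 and 1.13 TPM, an SD of 2.93. Fos, a subunit of AP-1, was at 27.6, 24.2, 4.92, 2.42 and 1.80 TPM, and Atf3 at 12.8, 14.5, 2.69, 0.471 and 0.358 TPM. Control 3 lay between the pairs in all 3 genes. Dusp1, a phosphatase that ends MAP kinase signals, was at 113, 86.6, 47.5, 10.52 and 23.7 TPM. Jund, another subunit of AP-1, was at 110, 114, 93.7, 84.5 and 91.3 TPM, an SD of 0.24.

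The Fos promoter is shown as that of a gene with a classical core. The window is chr12:85473640-85473939 on the plus strand of GRCm38.p6, from RefSeq, with the TATA box letters TATAAA in capitals, letters that 13.6% of all windows hold on either strand.
Fos: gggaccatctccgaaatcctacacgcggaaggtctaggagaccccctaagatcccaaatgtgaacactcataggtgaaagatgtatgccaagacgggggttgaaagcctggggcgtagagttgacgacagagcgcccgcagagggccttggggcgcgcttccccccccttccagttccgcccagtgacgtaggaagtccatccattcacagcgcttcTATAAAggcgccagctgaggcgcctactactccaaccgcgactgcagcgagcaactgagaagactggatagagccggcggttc

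Chaperone genes followed in part. Hspa1b, an inducible chaperone of the cytosol, was at 21.9, 18.03, 1.97, 2.74 and 4.005 TPM, an SD of 1.495. Creld2, a folding factor of the endoplasmic reticulum, was at 46.1, 55.1, 8.97, 27.2 and 12.7 TPM. Controls 1 and 2 lay above the rest for 11 of the 20 measured genes of the list, against 18.7% of all genes. Both lay below the rest for 2 of the 20, against 20.1% of all genes. Hspa8, Hspa5 and Hyou1 were among the 11. Hspe1 and Hsp90b1 differed little, with SDs of 0.14 and 0.19.

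Fatty acid synthesis set control 2 apart. The list, which turns surplus sugar into fat, summed to 4479, 8338, 2130, 2765 and 2463 TPM. Scd1, the delta-9 desaturase, was at 2072, 4152, 296, 988 and 472 TPM, an SD of 1.40. Me1, which supplies NADPH, was at 127, 342, 42.8, 37.5 and 67.5 TPM, Elovl6, an elongase, at 29.5, 85.04, 6.49, 20.2 and 18.6 TPM, and Fasn, the synthase itself, at 284, 659, 294, 230 and 246 TPM. Control 2 was highest for 13 of 19 genes, against 32.4% of all genes, and the median SD of the list was 0.69, or 0.48 without control 2. Genes with an SD above 1 numbered 3, or 15.8% against 1.08% of all genes. Without control 2 they numbered 1, and over all genes 95. Srebf1, the factor that drives these genes with insulin, was at 71.2, 146, 114, 97.3 and 105 TPM, and Mlxipl, the factor that answers to glucose, at 72.4, 57.0, 59.81, 34 and 33.9 TPM.

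The cholesterol synthesis list had its highest sum in control 4. Its 23 genes summed to 1402, 2271, 1276, 2532 and 1891 TPM. Control 4 was highest for 14 genes, against 20.2% of all genes, and control 1 was lowest for 14, against 19.3%. Control 2 was highest for 7, a share near the 32.4% of all genes. Fdps, which makes farnesyl diphosphate, was the most abundant, at 252, 450.5, 241, 427 and 391 TPM. No gene of the list had an SD above 1. Only 1.08% of all genes had one, so the absence does not set the list apart.

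Genes of fat burning and of bile acids were both often lowest in control 4 in log2 CPM, while their summed levels differed. The first list summed to 11184, 12693, 8989, 7876 and 9671 TPM, lowest in control 4, and the bile acid list to 2617, 3359, 2352, 2920 and 2807 TPM, lowest in control 3. Control 4 was lowest for 15 of 24 genes of fatty acid oxidation and fasting and for 12 of 21 bile acid genes, against 1690 of all 8521. Cyp8b1, which sets the kind of bile acid made, was at 185, 243, 142, 125 and 228 TPM. Cyp2c70, which makes the muricholic acids of mice, was highest in control 4, at 269, 399, 436, 721 and 423 TPM. Cpt1a, which lets fatty acids into mitochondria, was at 61.6, 80.6, 40.6, 68.8 and 55.8 TPM and was lowest in control 3. Cyp4a10, a target of the fatty acid sensor PPARA, was at 70.8, 23.2, 19.1, 18.99 and 34.5 TPM, with control 1 highest.

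Genes of the growth hormone and IGF axis spread widely. Of 16 with a mean count of 100 or more, 5 had an SD above 1, or 31.2% against 1.08% of all genes, and the median SD was 0.46. Igfbp1, a binding protein that fasting raises, was at 116, 176, 98.8, 61.2 and 21.1 TPM, an SD of 1.16. Irs2, the insulin receptor substrate, was at 4.28, 7.88, 2.97, 1.73 and 0.877 TPM. Bcl6, a repressor that growth hormone lowers, was at 17.8, 24.5, 4.59, 3.70 and 2.64 TPM, whereas Socs2 and Cish, feedback inhibitors that growth hormone raises, were at 6.04, 2.62, 1.92, 26.4 and 14.4 TPM and at 1.75, 0.956, 0.906, 5.34 and 8.48 TPM. Igf1 itself was even, at 417, 413, 310, 529 and 406 TPM, an SD of 0.14. Bcl6 and Irs2 were named here after their values were seen.

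Clock genes spread slightly more than the median gene. Dbp, an output factor of the clock, was at 80.5, 116, 79.2, 123 and 132 TPM, and Nr1d1, a repressor of its loop, at 49.0, 55.5, 28.9, 41.2 and 34.2 TPM. Arntl, which that repressor silences in turn, had a mean of only 0.275 TPM. None of the 19 measured clock genes had an SD above 1, which does not set them apart, as only 1.08% of all genes had one. The median of the list was 0.30.

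Among genes with a mean count of 1000 or more, Rpl23a, a protein of the large ribosomal subunit, had the smallest SD of the named genes, 0.023, at 447, 540, 370, 496 and 451 TPM. In TPM control 3 was its lowest library, and in log2 CPM control 3 was its highest. Its coefficient of variation, 1.58%, lay under the 1.70% that counting error alone would give. Genes with that mean count numbered 2141, and the named ones were picked for their small SDs over 5 libraries. Others of the 15 named genes with the smallest SDs were Rpl7a of the ribosome, Ube2m and Ube3b of ubiquitin-like conjugation, Psma7 of the proteasome, Emc6 and Ganab of the endoplasmic reticulum, and Sdhc of the respiratory chain, all with SDs of 0.035 to 0.045. Kmo, a hepatocyte enzyme of tryptophan breakdown, was among them at 95.04, 108, 78.2, 108 and 97.5 TPM. The remaining 6 were Nipsnap1, Rnf149, R3hdm2, Plpbp, Dynll2 and H2afy.

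Common reference genes spread about as much as the median gene. The 19 references had a median SD of 0.192, close to the 0.21 of all genes. Ppia, Rps18 and Ywhaz had SDs of 0.10 to 0.11. Gapdh and Actb had 0.16 and 0.22. Tfrc, the transferrin receptor, at 5.99, 7.61, 2.73, 3.64 and 3.02 TPM, had 0.61. Controls 1 and 2 lay above the rest for Tfrc. The 81 ribosomal protein genes with a mean count of 100 or more had a median SD of 0.16 and none above 0.5, with control 2 lowest for 53 of them, against 23.8% of all genes.

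Interferon-stimulated genes were low, and most of the 10 measured genes were highest in control 5 in log2 CPM. The list summed to 267, 208, 215, 320 and 316 TPM in controls 1 to 5, highest in control 4. Bst2 made up 62.9% of the sum. Bst2, a virion tether, was at 174, 135, 132, 201 and 191 TPM, and Isg15, a ubiquitin-like modifier, at 6.37, 5.16, 7.63, 14.4 and 14.98 TPM. Control 5 was highest for 8 of the 10 measured genes, against 20.2% of all genes, and control 2 lowest for 9, against 23.8%. For 6 of the 10, controls 1 and 2 were below all of controls 3 to 5, where the share over all genes was 20.1%.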

How the data were processed

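RNA from frozen whole mouse liver was sequenced on a BGISeq-500, per the labels. Reads were trimmed and quantified with tools listed as kallisto 0.4.6 and Trim Galore 0.6.4, with build GRCm38.p6, per the submitters' processing notes. The authors deposited estimated counts and TPM for 55385 gene IDs in each library. How transcripts were summed to genes, and whether strand was used, is not given in the sources used here. Of the IDs, 55144 matched GENCODE vM21, 54487 of them with the same version, and 241 did not match.

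The 5 libraries labelled Control were used and the other 5 were not. Estimated counts were rounded to whole numbers, scaled by TMM in edgeR 4.0.16 and turned into log2 CPM with a prior count of 2. The SD over the 5 libraries was taken for genes with a mean count of 100 or more, 8521 genes, and the script was checked on simulated data. With 1 group there was no test and no p-value. DESeq2 1.42.0 gave the size factors of an alternative.

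Genes were named by a rule: the 20 most abundant, the 5 most abundant and 2 most variable members of each of 36 lists, the 25 most variable, and the 15 least variable at a mean count of 1000 or more. Predicted genes and pseudogenes were left out of the last 2 sets. Acvrl1 and the well-counted members of the sex chromosome, immediate early and acute phase lists were added. Other list members are given as examples of their list and were chosen with their values known. Some genes named by the rule are not reported here, though list sums and counts include them. Members and lists were chosen with earlier results of these data known. The pool without mitochondrial genes and their copies was added after seeing the data.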

Additional observations from a re-analysis of the deposited data

Results flagged for a closer look

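A gene or list was singled out when its highest or lowest library lay so far from the nearest other one that the gap, divided by the whole range of log2 CPM (for a list, of its summed level), passed the Dixon value of 0.71 for 5 libraries. Chance alone flags about 1 in 20 groups. Of 232 named genes 18 passed, 7.76%, against 5.47% of all 8521 genes, and 1 of 36 lists passed. In 14 of the 18 genes the library apart was control 4 and in 0 control 2. The named genes were chosen in part for their spread and for the acute phase list. Over all genes, 466 passed, with control 2 apart in 187 and control 4 in 119.

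Control 4 was high for the summed acute phase list, with a ratio of 0.775, and for Cp at 0.869, Saa3 at 0.852, Prtn3 at 0.819, Mmd2 at 0.81, Fgg at 0.802, Fgb at 0.769, Lcn2 at 0.759 and Asns at 0.731. Cp, the copper carrier ceruloplasmin, stood at 364, 420, 328, 623 and 393 TPM. Mmd2 stood at 0.943, 1.74, 0.742, 13.4 and 1.30 TPM. Both are thus apart in control 4 at very different levels.

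Control 4 was low for Plvap at 0.776, Mup3 at 0.758, Ecm1 at 0.746, Klf2 at 0.723, Fabp1 at 0.718 and Colec10 at 0.711. Klf2, a flow-responsive endothelial factor, was at 6.55, 5.58, 4.72, 2.34 and 4.91 TPM, and Plvap, the protein of endothelial diaphragms, at 20.2, 22.4, 17.2, 14.8 and 21.3 TPM. Colec10, a collectin, was at 3.52, 3.45, 2.90, 1.15 and 2.49 TPM.

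The other 4 genes lay apart elsewhere. Alb was low in control 3, with a ratio of 0.789, and Bgn, a matrix proteoglycan, was low in control 5 at 0.85. Control 1 was high for Hamp2 at 0.753, at 228, 101, 63.0, 109 and 74.9 TPM, and low for H2afy, a histone variant gene, at 0.738. H2afy was among the most even genes, with an SD of 0.039, so this gap is a small one.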

How the results depend on the processing

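No paired analysis was possible because there was 1 group and no test. The number of genes at 1 TPM or more in all control libraries was 9335; a limit of 5 TPM gave 5359, and leaving out 1 library 9405 to 9586. The 10 most abundant genes held 24.3% of TPM but 21.1% of estimated counts (23.5 to 25.6% with 1 library left out). The 100 most abundant held 65.2%, against 54.5% of counts and 58.4% without mitochondrial genes and their copies (63.6 to 66.5%). The number of genes with SD of log2 CPM above 1 between control libraries was 92, and 365 with mean counts of 10 or more, 36 with 1000 or more, 899 with any count and 601 for an SD above 0.5. Leaving out 1 library gave 65 to 109, the lowest without control 4. DESeq2 size factors gave 92, library totals 95, log2(TPM + 1) 69, log2(TPM + 0.1) 88 and an SD within the file-number runs 74. The median SD of 0.215 stayed between 0.179 and 0.269. The SD of 53 of 228 named genes was over 1.5 times smaller without control 4, and that of 49 of 237 within runs; the causes were not tested. Leaving out mitochondrial genes and copies and rescaling raises the summed level of every other list by construction. For 22 of 35 lists the rise passed their SD. Depth limits most biliary, lymphocyte and continuous endothelial genes, whose mean counts lie under 100.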
